A study of Mus musculus with 6 samples.

Results

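Eomes and Tbx21, the T-box transcription factor genes of natural killer (NK) cells, were followed in RNA-seq counts of sorted thymic NK cells, 1 library per mouse. Both were chosen by name, through their Entrez gene IDs, and are 2 of the 26332 genes in the count table. The groups were 2 mice with a knockout (KO) of Tcf7, the gene of the transcription factor TCF-1, and 4 wild-type (WT) mice, all on a C57BL/6 background. The sort kept NK1.1+ NKp46+ cells and left out cells with TCRbeta, CD3, CD8 or binding of a CD1d tetramer. KO 1, WT 1 and WT 3 were labelled male, and KO 2, WT 2 and WT 4 female. Neither the age of the mice nor the design of the Tcf7 allele, or the cells that carry it, is stated in the labels. The comparison asks what loss of Tcf7 changes in thymic NK cells.

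T-box factors bind DNA through a conserved domain, the T-box. In mice, T-bet (encoded by Tbx21) and Eomes (eomesodermin) act together in NK cells: T-bet is already active in immature NK cells and in type 1 innate lymphoid cells (ILC1), whereas Eomes marks conventional NK cells and is needed for their full maturation, including display of many Ly49 receptors. The balance of the pair is commonly used to tell conventional NK cells, which have both, from ILC1, which have T-bet and little Eomes.

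Library totals ranged from 16418910 to 31155303 counts. Levels are given as CPM, which is counts per 1e6 mapped to genes, on TMM-scaled library sizes, and a floor of 3 counts equals 0.0963 to 0.183 CPM. The targeted gene, Tcf7, had 268 CPM in KO 1 and 452 CPM in KO 2, against 811 to 947 CPM in the WT libraries (log2 fold change -1.35, edgeR adjusted p = 2.94e-03), so transcript was still counted in both KO libraries. Of 13652 genes tested with edgeR, 13.7% were called at an adjusted p under 0.05, with 8.13% of the genes tested called higher and 5.58% called lower in KO. Of 10 NK identity genes, 1 was called higher (Cd7, not without KO 2, where the adjusted p was 0.0918) and 2 lower (Klrb1c and Tyrobp), and their summed level was 7952 CPM in KO 1 and 7222 CPM in KO 2, against 8839 to 8943 CPM in WT. WT 4 stood apart from the other WT libraries at several genes.

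Eomes fell in KO. The gene lies on the plus strand of mm10 chromosome 9, from 118478186 to 118486132, and its deposited length is 3715 bases. GENCODE lists 3 protein-coding transcripts of 5 or 6 exons. The antisense gene Gm33460 overlaps its 3' end on the other strand, and as the library kit does not mark strand, reads from the overlap cannot be told apart. Eomes had 5087 counts in KO 1 and 3776 counts in KO 2, against 22969, 28159, 15219 and 19826 counts in WT 1, WT 2, WT 3 and WT 4. Scaled, this was 295 CPM in KO 1 and 140 CPM in KO 2, against 930, 928, 913 and 800 CPM in WT 1 to WT 4. Both KO libraries lay far below the lowest WT library, and KO 2 lay below KO 1. The means were 218 ± 109 CPM in KO (SD, n = 2) and 893 ± 62.1 CPM in WT (SD, n = 4). The log2 fold change was -2.11 (SE 0.22, 95% interval -2.63 to -1.58, edgeR adjusted p = 1.59e-03), which is 23.2% of the WT level. Of the 762 genes called lower, 67 had a larger fall than Eomes.

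Tbx21 did not pass the test. It lies on the minus strand of chromosome 11, from 97098007 to 97115331, has a deposited length of 2552 bases and 1 listed transcript of 6 exons, and no other GENCODE gene overlaps it. Tbx21 had 482 CPM in KO 1 and 419 CPM in KO 2, against 509, 511, 459 and 385 CPM in WT 1 to WT 4. Both KO libraries fell inside the WT range. The means were 451 ± 44.1 CPM in KO (SD, n = 2) and 466 ± 59.1 CPM in WT (SD, n = 4). Its log2 fold change was -0.051 (SE 0.13, edgeR adjusted p = 0.8288). Its 95% interval, -0.35 to 0.24, lies apart from that of Eomes. The sign of this small value turned with library-size scaling (0.033) and without WT 2 (0.049).

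The promoters are shown because TCF-1, the factor whose gene was targeted, reads a short DNA word through its HMG domain. RefSeq's 250 bases before the start of each gene follow, the Eomes window reaching just past the outermost listed start (GRCm38.p6, 5' to 3' on the gene's strand, chr9:118477939-118478188 plus for Eomes and chr11:97115332-97115581 minus for Tbx21). Capitals mark the TCF/LEF core CTTTG on either strand, where CAAAG is the core read from the other strand.
Eomes: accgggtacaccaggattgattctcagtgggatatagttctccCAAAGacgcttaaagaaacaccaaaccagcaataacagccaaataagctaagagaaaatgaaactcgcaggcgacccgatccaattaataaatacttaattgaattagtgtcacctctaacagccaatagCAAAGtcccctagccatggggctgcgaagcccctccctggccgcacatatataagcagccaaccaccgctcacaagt
Tbx21: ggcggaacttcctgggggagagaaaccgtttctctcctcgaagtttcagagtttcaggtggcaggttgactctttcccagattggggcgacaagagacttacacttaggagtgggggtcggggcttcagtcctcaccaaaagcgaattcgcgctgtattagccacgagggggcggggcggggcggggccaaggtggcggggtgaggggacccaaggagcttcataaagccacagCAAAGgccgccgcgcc
The Eomes window held 2 cores and the Tbx21 window held 1. The core was found in 48.6% of 32851 promoters of this length. The core followed by 2 bases that are each A or T, which is an overlapping longer word, was in 0 positions of either window and in 14.8% of all promoters. Neither window held the T-box word GGTGTGA (3.33% of promoters) or the RUNX word TGTGGT (14.0%), both strands read. A match or its lack describes these letters in this window and says nothing of where a factor binds.

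Set against each other per length, the pair changed order. In KO, Eomes stood below Tbx21, with 79.4 and 37.7 CPM per kb in KO 1 and KO 2 for Eomes and 189 and 164 CPM per kb for Tbx21. In WT, Eomes stood above Tbx21, with 250.3, 249.8, 246 and 215 CPM per kb in WT 1 to WT 4 for Eomes and 199.6, 200.1, 179.9 and 151 CPM per kb for Tbx21. Ranked by level per kb among genes with a count, Eomes was number 899 in KO 1 and 2303 in KO 2, against 222 to 292 in WT. Tbx21 was number 274 in KO 1 and 328 in KO 2, against 302 to 467 in WT.

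**Figure D1:**
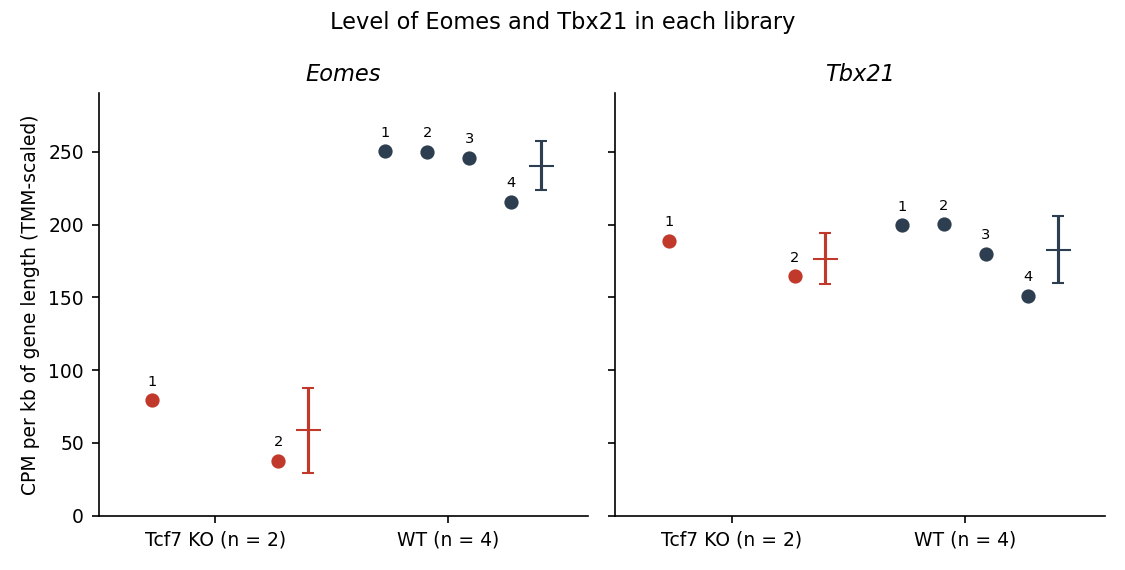
Each point is 1 library (numbered by replicate), with its level in TMM-scaled CPM per kb of gene length on the vertical axis, and bars give mean ± SD of the 2 KO and 4 WT libraries. Eomes in both KO libraries (79.4 and 37.7) lies below all WT libraries, while Tbx21 in KO (189 and 164) lies inside the WT range of 151 to 200.1.

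The Eomes to Tbx21 ratio does not depend on scaling between libraries, because both genes are counted in the same library. Per length it was 0.420 in KO 1 and 0.230 in KO 2, against 1.25, 1.25, 1.37 and 1.43 in WT 1 to WT 4. Tbx21 was 2.38 times Eomes in KO 1 and 4.35 times Eomes in KO 2, whereas Eomes was above Tbx21 in 4 of 4 WT libraries. The groups did not overlap, and the WT libraries kept within a narrow band. As shares of the counts of both genes together, Eomes had 38.0% in KO 1 and 25.1% in KO 2, against 64.5% to 67.5% in WT. The log2 ratio of counts averaged -1.14 ± 0.62 in KO (SD, n = 2) and 0.94 ± 0.10 in WT (SD, n = 4), a difference of -2.09, or 4.25-fold lower in KO. The exact two-sided permutation test over the 15 assignments of labels, with the smaller tail doubled, gave p = 0.133. That is the smallest value this rule allows over 15 assignments, so the test cannot reach 0.05. Counting error was small beside the spread: the 95% exact binomial interval of the raw count ratio was 0.591 to 0.634 in KO 1 and 0.322 to 0.347 in KO 2, against 1.79 to 1.87 in WT 1.

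**Figure D2:**
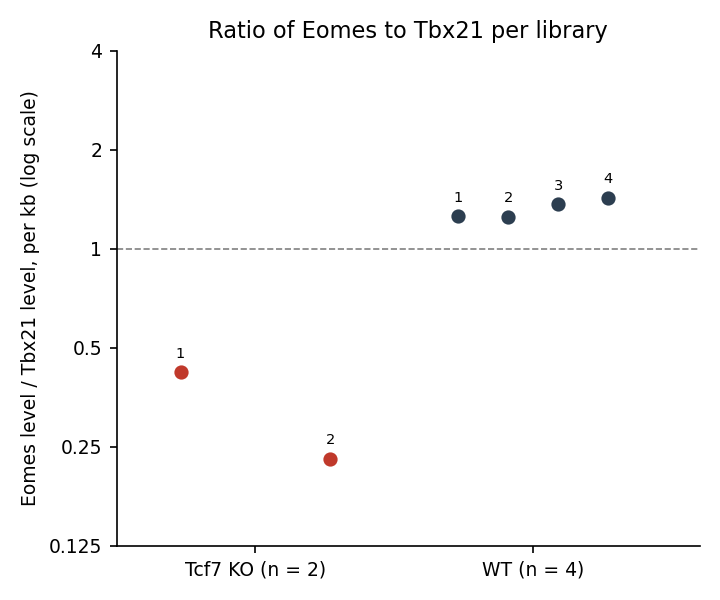
The level of Eomes over that of Tbx21, each per kb of gene length, is plotted on a log axis for each library (numbered by replicate), with a dashed line at equal levels. The KO libraries lie at 0.420 and 0.230, and the 4 WT libraries between 1.25 and 1.43.

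The sexes as labelled were compared next, since the 2 KO libraries differ in this label. The labels of sex were not checked against sex-linked genes here. In males, Eomes had 295 CPM in KO 1 and a mean of 921 CPM in the 2 WT libraries, which is 3.12 times the KO level. In females it had 140 CPM in KO 2 and a mean of 864 CPM in 2 WT libraries, which is 6.15 times the KO level. Eomes was lower in KO within both sexes as labelled. The female effect minus the male effect was -0.98 on the log2 scale (SE 0.18, edgeR unadjusted p = 1.53e-03, adjusted p = 0.344 over all genes). This difference rests on 1 KO library per sex, so it cannot be told apart from a difference between the 2 KO mice. It passed the threshold by DESeq2 (adjusted p = 4.22e-04), without the low count filter (0.0312), without WT 2 (0.0125) and without WT 4 (4.09e-03). For Tbx21 the same difference was -0.088 (edgeR adjusted p = 0.939). By the sex term, female minus male was -0.41 for Eomes (edgeR adjusted p = 0.759) and -0.14 for Tbx21 (0.808), with -0.56 to -0.092 for Eomes and -0.27 to -0.041 for Tbx21 when 1 library was left out. These values come with means of 623 CPM in females and 712 CPM in males for Eomes, and 438 CPM in females and 483 CPM in males for Tbx21. No gene was called by edgeR for sex or for the interaction (0% of 13652), with 866 and 1368 genes at an unadjusted p under 0.05. DESeq2 called 28 and 130, and limma voom called 0 for both. By edgeR, then, no sex-linked gene among those tested was called for sex. The edgeR fit thus does not bear out the labels of sex.

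Both genes were then counted against the genes of the sort markers. Ncr1 encodes NKp46 and Klrb1c encodes NK1.1. Ncr1 was not called (log2 fold change -0.17, edgeR adjusted p = 0.384), and Klrb1c fell (-0.48, 0.0149), a call lost without WT 1 (0.0585) or KO 2 (0.0912). Per 100 Ncr1 counts, Eomes had 30.0 counts in KO 1 and 19.0 in KO 2, against 89.5 to 97.6 in WT. Per 100 Klrb1c counts, Eomes had 23.2 in KO 1 and 12.9 in KO 2, against 49.5 to 58.7 in WT. The mean fall was 3.89-fold per Ncr1 count and 3.13-fold per Klrb1c count. Tbx21 had 49.0 and 56.7 counts per 100 Ncr1 counts in KO 1 and KO 2, against 46.9 to 49.8 in WT, so KO 2 was above the WT range and KO 1 inside it. Per 100 Klrb1c counts, Tbx21 had 38.0 and 38.7 in KO 1 and KO 2, against 23.8 to 30.1 in WT. In bulk samples such as these, fewer cells that express a gene and less of its RNA per cell cannot be told apart.

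**Figure D3:**
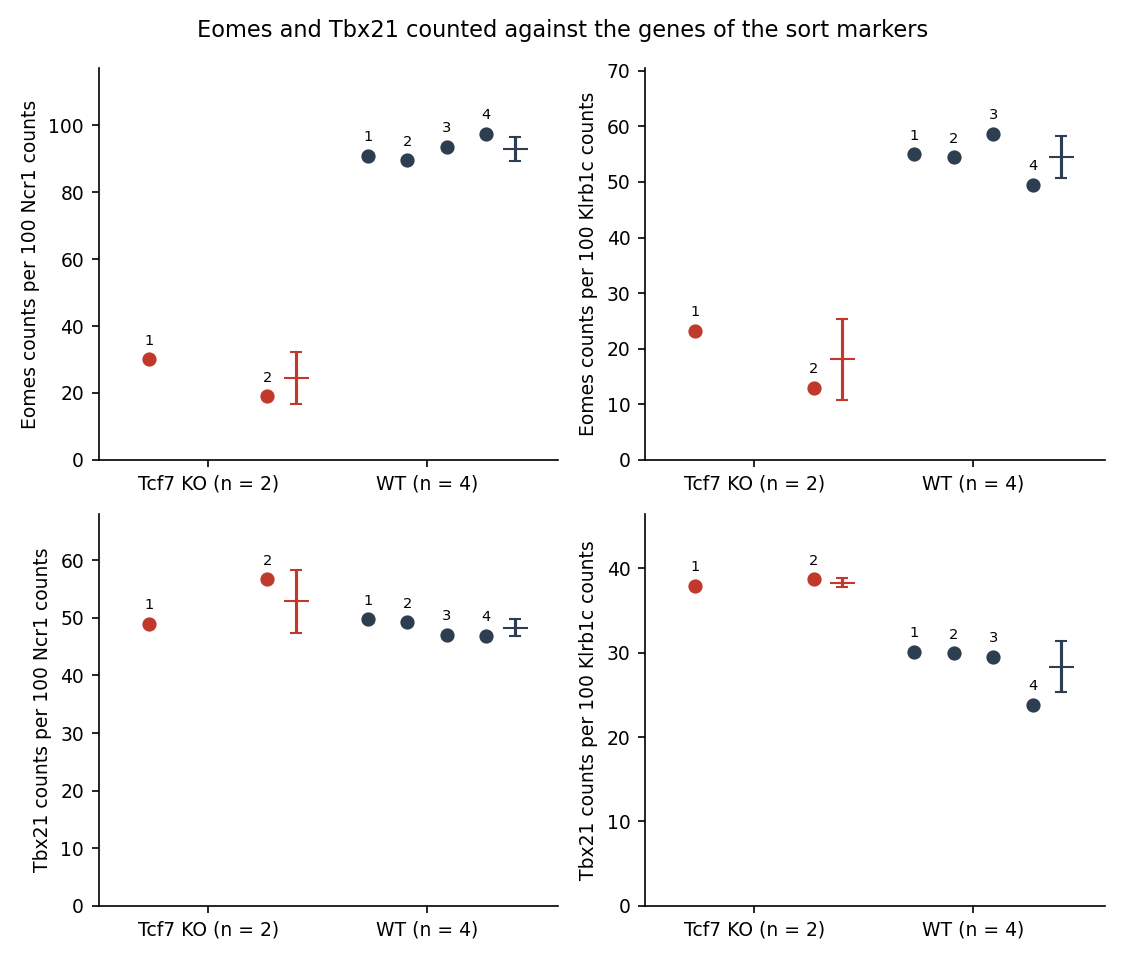
Counts of Eomes (top) and Tbx21 (bottom) per 100 counts of Ncr1 (left) or Klrb1c (right) are shown for each library, numbered by replicate, with mean ± SD of the 2 KO and 4 WT libraries. Eomes lies at 19.0 and 30.0 per 100 Ncr1 counts in KO and at 89.5 to 97.6 in WT, whereas Tbx21 in KO lies inside or above the WT range per Ncr1 count and above it per Klrb1c count.

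Markers of other cell types moved with the genotype. Against 8.13% of all genes called higher, alpha-beta T cell genes had 6 of 14 members called higher (2 without WT 3 or without KO 1) and 1 lower, with a summed level of 1837 CPM in KO 1 and 2280 CPM in KO 2, against 535 to 846 CPM in WT. Gamma-delta T cell genes had 5 of 7 called higher, 3 without KO 1 (721 and 557 CPM in KO 1 and KO 2, against 219 to 380 CPM in WT). B cell genes had 7 of 10 called higher, but 3 without WT 1 and 1 without WT 3 or without KO 1 (609 and 440.9 CPM, against 398 to 440.7 CPM in WT), and stromal genes 4 of 6 tested, 2 without KO 2 (272 and 452 CPM, against 111 to 120 CPM). Of 9 myeloid genes tested, edgeR called 0, with 8 at an unadjusted p under 0.05, against 3998 of all 13652 genes tested. DESeq2 called 2 higher and 1 lower, limma voom called 6 higher and edgeR without WT 4 called 5 higher. Over all genes, DESeq2 called 2955, limma voom 2410 and edgeR without WT 4 1908, against 1872 by edgeR with every library. The myeloid sum was 993 CPM in KO 1 and 701 CPM in KO 2, against 839 to 892 CPM in WT, mostly from Itgax. Sums follow the most expressed members in the other lists too. The mean log2 of CPM plus 1 over the B cell genes was 4.90 and 3.37 in KO 1 and KO 2, against 1.87 to 2.35 in WT. Over the stromal genes it was 1.70 and 2.26, against 1.00 to 1.12. No marker of these lists was at 0 in every library. The called members with the largest changes, up to 3 from each list, were Trac, Cd4, Cd8a, Blk, Sox13, Trgc1, Ms4a1, Pax5, Fcmr, Krt8, Krt5 and Epcam, and all but Trac, Blk, Trgc1 and Epcam lost their call when 1 library was left out. Immediate early and heat shock genes, which handling can induce, summed to 879 and 1194 CPM in KO 1 and KO 2, to 1462 and 1526 CPM in WT 2 and WT 1, and to 4538 and 7864 CPM in WT 3 and WT 4. All 13 had log2 fold changes below 0 as fitted, with a median of -2.003. The number below 0 was 12 without WT 4, without WT 3 and WT 4 together, or with the replicate block. By edgeR, 11 had an unadjusted p under 0.05, against 3998 of all 13652 genes tested. By edgeR's adjusted p, 2 were called lower (Fos and Zfp36), but 11 without WT 2 or without the low count filter, 8 by DESeq2, and 0 with the robust option or without WT 3, KO 1 or KO 2. Without WT 3 and WT 4 together, the log2 fold change of Eomes was -2.19 and that of Tbx21 -0.18. The part of other cell types in these changes was not tested, and Eomes was 3.89-fold lower in KO per Ncr1 count and 3.13-fold lower per Klrb1c count.

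The rest of the T-box family was near silent apart from Mga. Mga, which encodes a large MAX-binding protein with a T-box, had 209 CPM in KO 1 and 214 CPM in KO 2, against 164 to 216 CPM in WT (log2 fold change 0.083, edgeR adjusted p = 0.717). Tbx6, a gene of mesoderm segmentation in the embryo, had 4.17 and 2.64 CPM in KO 1 and KO 2, against 0.929 to 2.16 CPM in WT (1.17, edgeR adjusted p = 0.193). The other 13 members did not pass the expression filter, and 6 of these (Tbx1, Tbx5, Tbx10, Tbx20, Tbx22 and T) had 0 counts in every library. Of the 4 T-box genes tested, Tbx21 among them, edgeR called Eomes alone.

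Genes known from mouse studies to need Eomes in NK cells were largely lower. Of 13 tested, 8 were called lower and none higher, against 5.58% of all genes called lower, and all 13 log2 fold changes were below 0 as fitted (12 with library-size scaling, 11 without KO 2). The median was -1.09, against 0.017 over all genes tested. The Ly49 receptor gene Klra4 had 45.8 and 26.6 CPM in KO 1 and KO 2, against 657, 679.5, 728 and 759 CPM in WT 1 to WT 4 (log2 fold change -4.32, edgeR adjusted p = 1.35e-04). Klra6 had 6.49 and 2.45 CPM in KO 1 and KO 2, against 27.7 to 34.02 CPM in WT (-2.94). Klra1 had 47.8 and 9.95 CPM in KO 1 and KO 2, against 119 to 218 CPM in WT (-2.70), and lost its call without WT 1 (edgeR adjusted p = 0.0695) and with the robust option (0.149). In each of these 3 genes the KO libraries lay below all WT libraries, but the genes were named for the largest changes among called members. The share of all genes that part the groups in this way was not counted. Klra3, Klra8, Klra9 and the integrin gene Itga2, whose product CD49b is an NK marker, were also called lower (-2.09 to -1.07). Itga2 was not called without KO 2 (0.0866). Not called were Klra7, Itgam, Spn, Il2rb and Prf1, though Klra7 was called lower without KO 1 (5.79e-03). Klra7, another Ly49 gene, had 621 CPM in KO 1 and 224 CPM in KO 2, against 439 to 479 CPM in WT. Perforin's gene Prf1 had 992 and 806 CPM, against 1109 to 1353 CPM in WT (-0.43, edgeR adjusted p = 0.0525), and was called lower by DESeq2 (7.43e-03), without WT 4 (0.0458) and under 5 other settings. Because the Klra genes are so alike in sequence, how reads were divided among them is uncertain. Most of the genes called lower in this list were Klra genes. The part of the lower Eomes in these falls, beside loss of Tcf7 by another route, was not tested.

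Genes known to need T-bet had calls in both directions. Of 19 tested, 3 were called higher and 3 lower, against 8.13% and 5.58% of all genes. The log2 fold change was below 0 for 14 and above 0 for 5 (10 and 9 without KO 2), with a median of -0.31. With 1 library left out, the median was -0.59 (without KO 1) to -0.20 (without KO 2), and 2 to 5 genes were called lower. Gzmb, the granzyme B gene, had 2022 and 1543 CPM in KO 1 and KO 2, against 462 to 559 CPM in WT (1.83, edgeR adjusted p = 3.40e-04). Klrg1, an inhibitory receptor gene of mature NK cells, had 174 and 121.5 CPM in KO 1 and KO 2, against 54.4 to 75.9 CPM in WT (1.16, edgeR adjusted p = 6.81e-03). S1pr5, the sphingosine 1-phosphate receptor gene used by NK cells to leave tissues, had 106 and 82.0 CPM, against 189 to 243 CPM in WT (-1.15). In these 3 genes the groups did not overlap. The 3 genes were named for the largest changes among called members, and the share of all genes without overlap was not counted. The others called were the chemokine receptor gene Cx3cr1 (0.78), the maturation factor gene Zeb2 (-1.03) and the protease gene Cma1 (-0.49). Cx3cr1 was not called when any 1 of 4 libraries (KO 1, KO 2, WT 1, WT 3) was left out (edgeR adjusted p 0.0621 to 0.196), and Cma1 without any one library other than WT 1 (0.0587 to 0.207), with library-size scaling, with the replicate block and without WT 3 and WT 4 together (0.0796 to 0.170). Ifng, the interferon gamma gene, had 99.2 and 49.1 CPM in KO 1 and KO 2, against 63.3 to 191 CPM in WT, and was not called (-0.61, edgeR adjusted p = 0.466). Cxcr3, Il12rb2, Hlx, Ccl3, Ccl4, Ccl5, Il18r1, Il18rap, Prdm1, Prf1, Fasl and Il2rb were not called either. Of these, Ccl3 (0.0347) and Il18rap (0.0419) were called lower without WT 4, Cxcr3 lower without WT 3 and WT 4 together (0.0214) and Fasl higher without KO 2 (0.0254). Il2rb, which encodes a chain of the receptors for interleukins 2 and 15 and stands in both lists, had 2809 and 3334 CPM in KO 1 and KO 2, against 3145 to 3786 CPM in WT (-0.18, edgeR adjusted p = 0.265).

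ILC1 genes were higher, with 7 of 13 called and none lower, against 8.13% of all genes called higher, and a median log2 fold change of 1.13. All 13 log2 fold changes were above 0 as fitted, 11 with the replicate block and 10 without KO 1 or without KO 2. Cd200r1, an inhibitory receptor gene, had 91.2 and 131.5 CPM in KO 1 and KO 2, against 3.16 to 9.66 CPM in WT (4.17, edgeR adjusted p = 6.51e-04). Cxcr6, a chemokine receptor gene of liver and tissue residency, had 521 and 1037 CPM in KO 1 and KO 2, against 65.4 to 118 CPM in WT (3.12). Itga1, whose product CD49a marks ILC1 in the liver, had 255.5 and 293.5 CPM, against 88.5 to 128 CPM in WT (1.36). Ckb, Itgae, Il21r and Tnfsf10 (the TRAIL gene) were also called, with log2 fold changes of 2.82, 2.40, 1.28 and 1.13. Tnfsf10 lost its call without WT 3 (0.0523) or KO 2 (0.141). Il7r, Inpp4b, Cd69, Gpr183, Xcl1 and Rgs1 were not called, though Rgs1 was called higher without WT 4 (0.0119) and Inpp4b without WT 2 (0.0444). T cells express several of these genes, Itgae and Cxcr6 among them, and the summed alpha-beta T cell level was 1837 and 2280 CPM in KO 1 and KO 2, against 535 to 846 CPM in WT. The part of T cells in the ILC1 list was not tested.

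**Figure D4:**
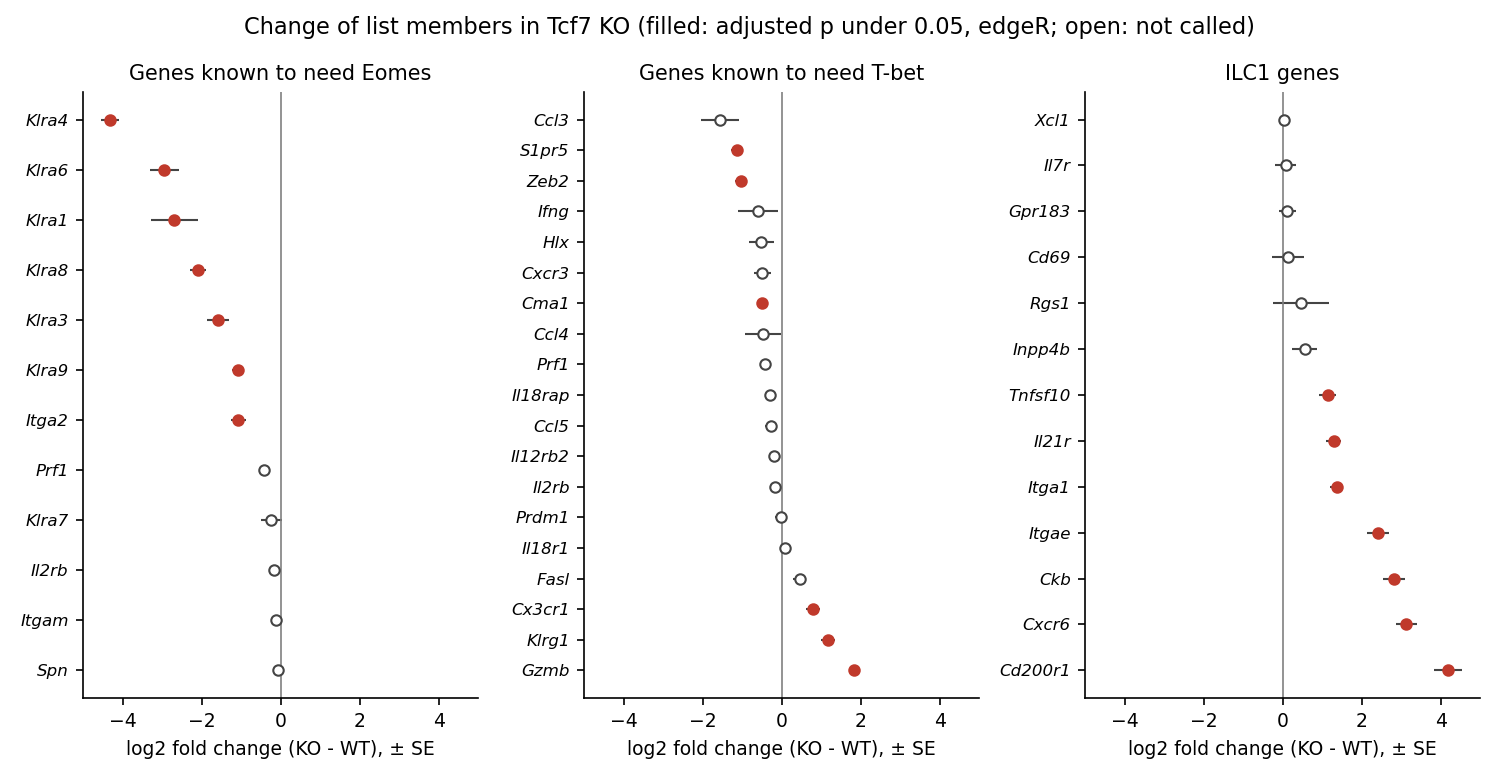
Log2 fold change of KO over WT (horizontal axis, with SE) for members of 3 lists, ordered by size, with filled points for genes at an edgeR adjusted p under 0.05. As fitted, the 12 genes shown that are known to need Eomes lie below 0 and the 13 ILC1 genes above 0 (exceptions under other settings stand in the text), while genes known to need T-bet lie on both sides.

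Inputs to the pair were mixed. Of 28 genes for factors, receptors and kinases that act on Eomes or Tbx21 in lymphocytes, 3 were called higher and 4 lower, against 8.13% and 5.58% of all genes. The targeted gene, Tcf7, is 1 of the 4 called lower. The median log2 fold change was -0.025, which turned sign with library-size scaling (0.058), without WT 1 (0.032) and without KO 1 (0.13). Beside Tcf7 itself, Foxo1, a factor that restrains T-bet, had 121 and 144 CPM in KO 1 and KO 2, against 211 to 318 CPM in WT (-0.98, edgeR adjusted p = 4.93e-03). Il12rb1, a chain of the interleukin 12 receptor, had 100.3 and 134 CPM in KO 1 and KO 2, against 51.7 to 59.1 CPM in WT (1.06, edgeR adjusted p = 2.58e-03). The groups did not overlap for either gene. Both were named for the largest changes among called members, and the share of all genes without overlap was not counted. Runx3, a partner of T-box factors in NK and T cells, had 191 and 281 CPM, against 328 to 356 CPM in WT (-0.54, edgeR adjusted p = 0.0382). Its call went when KO 1, WT 1, WT 2 or WT 3 was left out (0.0719 to 0.257), with library-size scaling (0.0607) and without the sex term (0.0558). The interleukin 12 signal factor gene Stat4 (-0.69) and Il15ra (0.91), which encodes a chain of the interleukin 15 receptor, were also called, and each lost its call without at least 1 library of each group (0.0713 to 0.146). Lef1, which encodes a close relative of TCF-1, had 51.5 and 94.2 CPM in KO 1 and KO 2, against 44.0 to 61.1 CPM in WT (0.44, edgeR adjusted p = 0.230). Nfil3, Tox, Id2 and Ets1, which act early in NK development, were not called. Ets1 (-0.32, edgeR adjusted p = 0.0804) was called lower without WT 4 (0.0486), with the replicate block (0.0259), without WT 3 and WT 4 together (0.0224), without the low count filter (0.0360) and by DESeq2 (0.0331). Of 12 partner and cofactor genes, 2 were called lower and none higher, against 5.58% and 8.13% of all genes. Runx3, Zeb2, Hlx and Prdm1 of this list also stand in the other lists. Kdm6a, a histone demethylase gene, was called higher without WT 4 (edgeR adjusted p = 0.0483), with library-size scaling (0.0496) and by DESeq2 (0.0369). Kdm6b was called lower without WT 2 (edgeR adjusted p = 0.0387), without the low count filter (0.0324) and by DESeq2 (0.0372). Bcl6 was called lower without the low count filter (edgeR adjusted p = 0.0352) and by DESeq2 (0.0442). Zeb2 had 61.1 and 51.1 CPM in KO 1 and KO 2, against 103 to 135 CPM in WT (-1.03, edgeR adjusted p = 5.62e-03).

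The genes around each locus were read as well. Within 500 kb of Eomes the table held 8 genes, of which 7 were tested, with 1 called higher and 1 lower. The nearest, Golga4, begins 20.1 kb after Eomes and had 196 and 137 CPM in KO 1 and KO 2, against 102 to 164.5 CPM in WT (0.25, edgeR adjusted p = 0.232). On the other side 4933432G23Rik, at 41.1 kb, had at most 0.494 CPM in any library. The gene called higher was Itga9, an integrin gene, with 8.11 and 17.4 CPM in KO 1 and KO 2, against 0.0807 to 0.560 CPM in WT (5.42, edgeR adjusted p = 1.81e-03). Cmc1, a mitochondrial protein gene, was called lower (-0.70, 9.88e-03) and lost its call without KO 1 (0.0606), with the replicate block (0.0504) and without WT 3 and WT 4 together (0.0505). Around Tbx21, 23 of 28 genes were tested, with 1 called higher (Arhgap23, 2.73) and 2 lower (Sp2, -0.49, and Socs7, -0.48). Sp2 and Socs7 lost their calls without any one library other than WT 4 (edgeR adjusted p 0.0528 to 0.157), with the replicate block (0.0670 and 0.0748) and without WT 3 and WT 4 together (0.0644 and 0.0706). The nearest tested genes, Tbkbp1 and Osbpl7, were not called (0.50 and -0.14). Over all genes 13.7% were called.

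Genes with the pattern most like each member were found by the root mean square difference of centred log2 CPM over the 6 libraries, among 10112 genes. For Eomes these included Crtam, Klra8, Pou6f1 and App, with differences of 0.135 to 0.193 on the log2 scale. Crtam, a receptor gene of lymphocyte contact, had 38.3 and 14.0 CPM in KO 1 and KO 2, against 97.1 to 119 CPM in WT. Klra8, the Ly49H gene, had 130 and 72.5 CPM in KO 1 and KO 2, against 382 to 463 CPM in WT. The factor gene Pou6f1 had 42.1 and 22.5 CPM, against 102 to 122 CPM in WT, and App, the amyloid precursor gene, had 8.52 and 6.02 CPM, against 31.5 to 38.5 CPM in WT. Each of these 4 genes was lower in KO 2 than in KO 1 and lower in both than in any WT library, as Eomes was. This shared order follows from the choice, as the genes were picked for their likeness over these same 6 libraries. For Tbx21 the genes most alike were Mlxip, Top2b, Armc8, Cog5 and Gmeb1, with differences of 0.0397 to 0.0448. None of them was called by edgeR, which the choice by likeness to Tbx21 also favours. Top2b, a DNA topoisomerase gene, had 482 and 437 CPM in KO 1 and KO 2, against 392.2 to 511 CPM in WT.

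**Figure D5:**
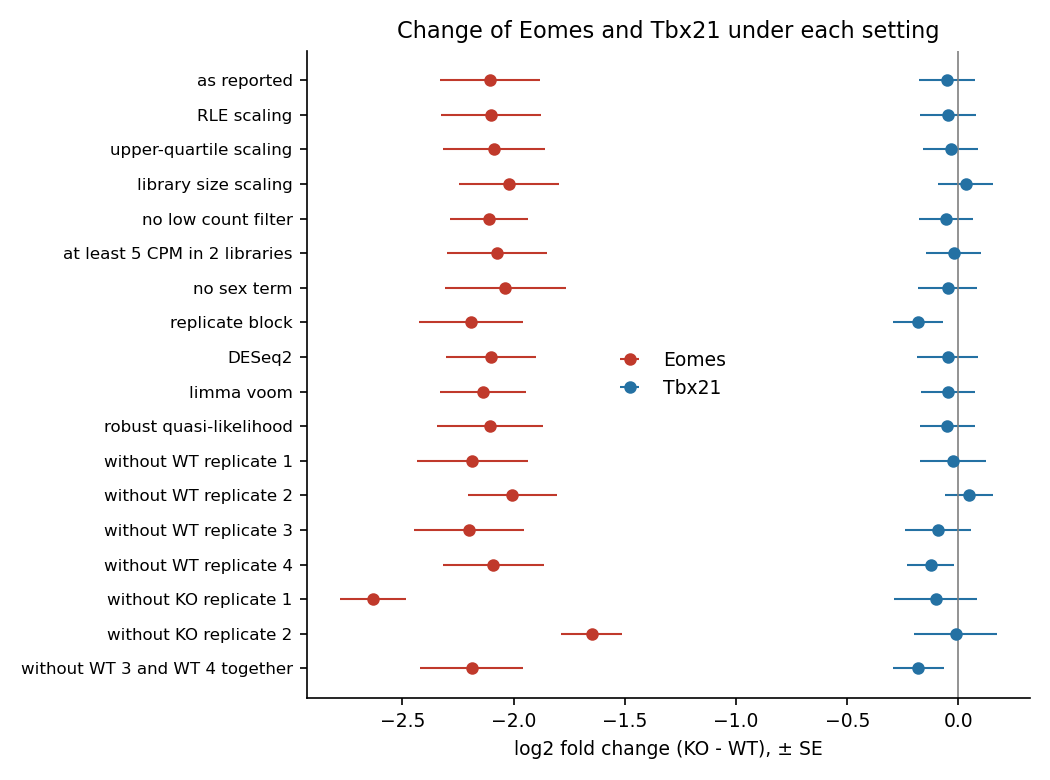
Log2 fold change of KO over WT (horizontal axis, with SE) of Eomes and Tbx21 as reported and under each other scaling, filter, covariate, tool or left-out library. Eomes runs from -2.63 without KO 1 to -1.65 without KO 2, and Tbx21 stays between -0.18 and 0.049.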

How the data were processed

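RNA-seq counts of 6 libraries of sorted thymic NK cells were used. Per the labels' protocols, the authors sieved thymi, sorted cells by flow cytometry and used a SMART-Seq v4 kit with paired-end Illumina sequencing. As deposited, each value is an unscaled count of reads for an Entrez gene. The mm10 build and featureCounts are named in the submitters' processing notes, and the aligner is not given in the sources used here. The table also gives gene lengths, per the file headers, which served only to set levels per kb. It held 0 columns of other samples. Without molecular identifiers counts are not independent molecules, so intervals and floors cover counting error only.

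Symbols came from a RefSeq table of GRCm38.p6 (25275 of 26332 IDs), and transcripts and overlaps from GENCODE on the same build. KO was compared with WT in edgeR 4.0.16 (R 4.3.3): TMM, filterByExpr, glmQLFit and glmQLFTest, sex as an additive term, Benjamini-Hochberg adjustment over 13652 genes, called at an adjusted p under 0.05. Each log2 fold change is that of KO over WT, and 95% intervals of fold changes use the fit's 3 residual and 4.50 prior degrees of freedom. The ratio was tested by exact permutation over the libraries. Replicates are individual mice and differed by more than counting noise (chi-square over its degrees of freedom, 8.86 to 62.2 per pair), and none were merged. The procedure was tested on simulated data with the same spread for all genes, no sex effect and no library that stood apart. That test does not show how well calls hold in these libraries. Alternatives were other scalings and filters, no sex term, a replicate block, DESeq2 1.42.0, limma voom (limma 3.58.1), the robust option, and fits that drop 1 library at a time. A lone remaining KO library was then assumed to vary like the WT libraries.

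The members, the gene lists and the alternatives were chosen with earlier results of these data known. Named by rule were Eomes, Tbx21, Tcf7, Ncr1 and Klrb1c, in each list the called genes with the largest fold changes, up to 3 (or, with fewer than 2 calls, the most expressed, up to 2), the 5 genes most like each member (mean of at least 2 log2 CPM, prior count of 2), called neighbours and the nearest tested neighbour on each side. Other genes were named after their values were seen. Of 14 ILC1 genes listed, Zfp683 was not analysed here. Some members of the lists are counted but not reported here by name.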

Additional observations from a re-analysis of the deposited data

Results flagged for a closer look

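In groups of 4 libraries, the gap of 1 library to the nearest of the others was divided by the group's range and set against Dixon's 95% critical value. Of 75 WT groups read this way 11 passed. About 1 in 20 would pass by chance if the groups were independent and normally spread, which these are not. Summed levels hold genes that were also read alone, and a gene counted in 1 library only always passes. The number that passed is therefore not read as an excess over chance. In 9 of the 11 the library that stood apart was WT 4.

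Eomes had 800 CPM in WT 4 and 913 to 930 CPM in the other WT libraries (gap over range 0.868), and its log2 fold change without WT 4 was -2.09. Tbx21 per 100 Klrb1c counts was 23.8 in WT 4 and 29.5 to 30.1 in the others (0.906). Mga had 164 CPM in WT 4 and 209 to 216 CPM in the others (0.863), which also set the summed level of the other T-box genes, at 166 CPM in WT 4 and 211 to 218 CPM in the others (0.870). The summed level of the T-box partner genes was 3464 CPM in WT 4 and 2456 to 2599 CPM in the others (0.858). Bhlhe40, a stress-responsive factor gene in that list, had 1132 CPM in WT 4 and 165 to 213 CPM in the other WT libraries.

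Cd8a had 20.1 CPM in WT 4 and 1.78 to 2.94 CPM in the others (0.937). Ms4a1 had 1.57 CPM in WT 4 and at most 0.165 CPM in the others (0.895). Krt5 had 0.0404 CPM in WT 4, under the floor of 3 counts, and 0 CPM in the others (1.0). Sp2 had 80.4 CPM in WT 4 and 83.8 to 84.3 CPM in the others (0.880). Klra6 had 27.7 CPM in WT 3 and 33.6 to 34.02 CPM in the others (0.941). The summed myeloid level was 839 CPM in WT 2 and 886 to 892 CPM in the others (0.877).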

How the results depend on the processing

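Eomes was called lower under every alternative run, with log2 fold changes of -2.63 to -1.65 when 1 library was left out, and Tbx21 was called under none (-0.12 to 0.049, with 0.033 under library-size scaling). The log2 difference of the Eomes to Tbx21 ratio lay between -2.52 and -1.65 with 1 library left out, and no alternative turned it. With the replicate number as a block, Eomes had -2.19, Tbx21 -0.18, the ratio -2.01 and 1341 genes were called. No KO library shares a number with WT 3 or WT 4, so under the block these add nothing to the genotype effect. The block and the fit without WT 3 and WT 4 together (Eomes -2.19, Tbx21 -0.18, ratio -2.01) are therefore not separate checks. Replicate numbers are shared only as numbers, and coincide with sex. Deviations of same-numbered libraries from their group means correlated across genes at 0.13 (replicate 1) and -0.048 (replicate 2). As the KO group holds only KO 1 and KO 2, their deviations mirror each other, so these values cannot decide whether the numbers mark pairs. The numbers were not taken as pairs. Over all genes, 1872 were called, 934 to 1908 with 1 library left out and 2955 by DESeq2. Of the calls, 59.3% were higher, and 71.9% under library-size scaling.

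The genotype by sex difference of Eomes passed without the low count filter (-0.98) and by DESeq2 (-0.99), and was -1.08 to -0.87 with 1 WT library left out; without a KO library it could not be fitted. That of Tbx21 was -0.28 to 0.13. The log2 difference per Ncr1 count was -2.29 to -1.63 for Eomes and 0.023 to 0.23 for Tbx21, and per Klrb1c count -2.07 to -1.23 for Eomes, with 1 library left out. DESeq2 called 11 genes in the list of inputs and 5 in that of partners, against 2955 of all 13652 genes tested. With 1 library left out, 7 to 9 genes needing Eomes were called lower, and 6 to 8 ILC1 genes higher.

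Log2 changes near 0 turned sign for Mga (-0.015 with the block, -0.013 without WT 3 and WT 4 together, -0.013 to 0.16 with 1 library left out), Mlxip (-0.0038 without the filter, -0.11 with the block and without WT 3 and WT 4 together, -0.055 to 0.074), Top2b (0.060 under library-size scaling, 0.0068 with at least 5 CPM in 2 libraries, -0.088 to 0.047), Armc8 (0.028 under library-size scaling, -0.12 to 0.018), Cog5 (-0.10 with the block, -0.094 without WT 3 and WT 4 together, -0.051 to 0.14), Cd68 (-0.093 to 0.40) and 4933432G23Rik (-6.21 to 1.36, from 0 to 15 counts per library). The cause was not tested. Depth limits only genes near the floor of 3 counts.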

Other observations

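The KO libraries also differed from each other, a pattern noticed after the values were seen and given with no test. Eomes was lower in KO 2 (140 CPM) than in KO 1 (295 CPM). Of the 13 genes known to need Eomes, 11 were lower in KO 2 than in KO 1, as were 16 of 19 genes known to need T-bet, against 47.6% of all 13652 genes tested. So were 9 of 10 B cell genes, 6 of 7 gamma-delta T cell genes and 7 of 10 NK identity genes. Of 13 ILC1 genes 3 were lower in KO 2, and of 28 inputs to the pair 5. Cxcr6 had 1037 CPM in KO 2 and 521 CPM in KO 1, and Itgae, an integrin gene of lymphocytes in epithelia, 1204 CPM in KO 2 and 417 CPM in KO 1. The mice differ in sex as labelled, and Tcf7 itself was counted at 452 CPM in KO 2 and 268 CPM in KO 1.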
